A study of Homo sapiens with 4 samples.

Results

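The YAP/TAZ-TEAD module and the Hippo kinases that restrain it were described by 10 genes: the coactivators YAP1 and WWTR1 (the gene of TAZ), the DNA-binding partners TEAD1, TEAD2, TEAD3 and TEAD4, the kinases LATS1 and LATS2, and the adaptor proteins AMOTL2 and AJUBA. They were chosen by symbol, and all 10 were found among the 24014 genes of the count table, each on 1 row. SK-N-SH cells, an established human neuroblastoma line, gave 2 control and 2 AP1AR-DT_OE libraries for RNA-seq. Control cells, titled WT and labelled wild type in genotype, had received a lentivirus with an empty vector, and AP1AR-DT_OE cells a lentivirus carrying the long non-coding RNA AP1AR-DT (named AC109347.1 in the labels). For AP1AR-DT_OE 2 the title gives AC109347.1 but the genotype and treatment fields give AC109347.2, and the title was followed. The sources do not say whether the libraries of a group came from separate transductions or cultures. The spread between libraries that enters the p-values may therefore be technical.

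YAP1 and TAZ are transcriptional coactivators that do not bind DNA themselves. When they enter the nucleus they join TEAD factors on genes for growth, matrix and adhesion. The Hippo cascade phosphorylates them through the LATS kinases, which keeps them in the cytoplasm or sends them to degradation, and AMOT-family and LIM-domain adaptors act on both the kinases and the coactivators. Neuroblastoma cultures can hold adrenergic, neuroblast-like cells and mesenchymal, substrate-adherent cells, and YAP1 is known as a gene of the mesenchymal kind. LATS2 and AMOTL2 are themselves targets of YAP/TAZ-TEAD and form negative feedback on the module.

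TEAD factors recognise the letters GGAATG, or CATTCC on the other strand. Both were searched in RefSeq promoter windows (GRCh38.p14) that run from 250 bases before to 50 bases after each start site. Of all 35116 windows, 4928 (14%) held the element. The members matched 13 windows of 8 genes, and 4 windows held it, 1 each of YAP1, LATS2, AMOTL2 and AJUBA. AMOTL2 (chr3:134375368-134375667) and AJUBA (chr14:22982502-22982801) each had another window, which did not hold it. The list of 22 target genes used below matched 18 windows of 16 genes, and 9 of these windows held it. For the feedback members LATS2 and AMOTL2, which are both members and targets, the windows that held the element are shown. Among the most abundant targets that are not members, NT5E had a window without the element and CCN1 matched no window. The window of CCN2, another of these targets, is shown with those of LATS2 and AMOTL2. Each is printed 5′ to 3′ on the strand of the gene, with the element in capitals.

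LATS2, chr13:21061537-21061836, minus strand, with GGAATG starting 9 bases after the start site:
LATS2: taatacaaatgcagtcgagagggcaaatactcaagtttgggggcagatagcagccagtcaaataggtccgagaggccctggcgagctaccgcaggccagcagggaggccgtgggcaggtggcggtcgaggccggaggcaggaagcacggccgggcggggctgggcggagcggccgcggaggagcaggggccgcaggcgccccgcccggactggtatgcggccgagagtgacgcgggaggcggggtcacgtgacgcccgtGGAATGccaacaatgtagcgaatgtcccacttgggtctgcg

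AMOTL2, chr3:134374398-134374697, minus strand, with CATTCC 69 bases before the start site of the window:
AMOTL2: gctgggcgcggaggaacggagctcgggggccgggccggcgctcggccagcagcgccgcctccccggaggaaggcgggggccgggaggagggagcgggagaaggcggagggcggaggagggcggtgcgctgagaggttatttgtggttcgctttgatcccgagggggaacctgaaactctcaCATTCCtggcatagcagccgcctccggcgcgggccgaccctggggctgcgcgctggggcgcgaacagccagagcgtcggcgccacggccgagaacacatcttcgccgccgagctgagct

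CCN2, chr6:131951323-131951622, minus strand, with GGAATG at 169, 104 and 95 bases before the start site:
CCN2: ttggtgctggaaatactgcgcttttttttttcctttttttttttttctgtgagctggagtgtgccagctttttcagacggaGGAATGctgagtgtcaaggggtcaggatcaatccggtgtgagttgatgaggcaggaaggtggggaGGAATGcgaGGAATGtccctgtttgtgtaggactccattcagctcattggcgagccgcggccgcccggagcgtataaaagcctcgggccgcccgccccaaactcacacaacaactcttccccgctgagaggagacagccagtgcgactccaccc

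The element stood 3 times in the CCN2 window and once in each of the others. A match describes these letters only, and binding of TEAD factors was not measured in these cells.

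The libraries held between 21988065 and 26184599 counts. AP1AR-DT (listed under the symbol RP11-73K9.2) had 3 and 18 counts in control and 680 and 1065 in AP1AR-DT_OE (Log2FC = 6.63, SE = 0.64, DESeq2 adjusted p = 3.64e-21; adjusted p = 0.39 by the edgeR quasi-likelihood test), in the direction of the labels. A pair of reads was worth about 4 counts in this table, so the lowest member value, 258 counts of LATS1, stood for about 64.5 read pairs and a relative counting error of 12.5%. The 11 adrenergic markers analysed, among them HAND2 and GATA3, and the 12 mesenchymal markers all had counts in each library. The summed normalized count of the mesenchymal markers was 227857 and 167340.0 in control and 224376 and 184786 in AP1AR-DT_OE, and that of the adrenergic markers was 31900.3 and 25552 against 30800.7 and 28111. In both lists the sums of the groups overlapped. Abundant markers weigh most in a sum, and VIM averaged 84131 normalized counts over the 4 libraries, against 230 for SNAI2. Of the 12 mesenchymal markers 7 had a Log2FC above 0 and 5 below, with a median of 0.05, and of the 11 adrenergic markers 8 lay above 0 and 3 below, with a median of 0.03. None was called. Among the markers PRRX1, a mesenchymal transcription factor, had 2770 and 11358 normalized counts in control and 1241 and 2246 in AP1AR-DT_OE (Log2FC = -2.02, SE = 0.61, DESeq2 unadjusted p = 0.000987, adjusted p = 0.431). The part of cell composition in the values below was not tested. In bulk RNA, fewer cells of a type and less RNA per cell cannot be told apart.

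No member was called between AP1AR-DT_OE and control at an adjusted p under 0.05 by DESeq2, where 33 of all 24014 genes (0.137%) were called, and 0 members had an unadjusted p under 0.05, against 196 genes (0.816%). The edgeR quasi-likelihood test called 0 of all genes, with 112 at an unadjusted p under 0.05 and no member among them. The smallest unadjusted p of DESeq2 among the members was 0.444, for LATS2, and every adjusted p was 1. The 95% intervals of the Log2FC reached from -1.28 (LATS1) to 1.11 (TEAD4), so that changes between 0.411-fold and 2.16-fold lay inside at least 1 interval. A p that misses the threshold does not show that the groups were alike.

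**Figure D1:**
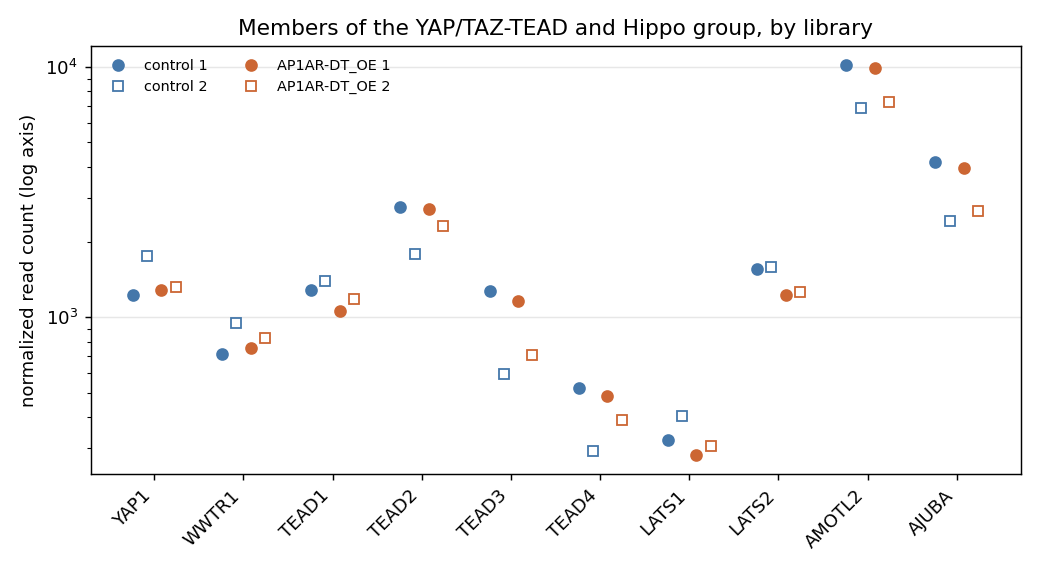
Normalized read count (counts divided by the size factor of the library, log axis) of the 10 members in the 4 libraries, with control in blue, AP1AR-DT_OE in orange, circles for number 1 and open squares for number 2. The libraries of number 2 lay above those of number 1 for YAP1, WWTR1, TEAD1 and LATS1, by little for LATS2, and below them for TEAD2, TEAD3, TEAD4, AMOTL2 and AJUBA, in both groups.

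The coactivators were both well detected. YAP1 (ENSG00000137693; chromosome 11, 102110447 to 102233424, GRCh38) had counts of 1080 and 2283 in control and 1170 and 1334 in AP1AR-DT_OE. In normalized read counts these were 1230.0 and 1761 in control and 1283 and 1324 in AP1AR-DT_OE. Control 2 stood above the other libraries, and both AP1AR-DT_OE values lay between the controls. The controls averaged 1496 ± 375 and the AP1AR-DT_OE libraries 1304 ± 28.8 (SD, n = 2), with a Log2FC of -0.20 (SE = 0.45, 95% interval -1.08 to 0.69, DESeq2 adjusted p = 1). Within number 1 (both libraries labelled 1) the log2 ratio of AP1AR-DT_OE over control was 0.06, and within number 2 it was -0.41, so the direction differed between the numbers.

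WWTR1 (ENSG00000018408; chromosome 3, 149517235 to 149736714), whose product TAZ is the paralogue of YAP1, had 711 and 947 normalized counts in control and 754 and 829 in AP1AR-DT_OE. Its values lay in the same order as those of YAP1, with control 1 lowest and control 2 highest. The Log2FC was -0.07 (SE = 0.46, 95% interval -0.97 to 0.83, DESeq2 adjusted p = 1), with 829 ± 167 against 791 ± 53.2 (SD, n = 2). The ratios were 0.09 for number 1 and -0.19 for number 2. WWTR1-AS1 has 756 exon bases in common with WWTR1 on the opposite strand but had between 4 and 14 counts in a library, against between 624 and 1228 for WWTR1.

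The 4 TEAD genes encode the DNA-binding partners of the complex. TEAD1 (ENSG00000187079; chromosome 11, 12674421 to 12944737) had 1292 and 1402 normalized counts in control and 1063 and 1188 in AP1AR-DT_OE. Both AP1AR-DT_OE libraries lay below both controls, with log2 ratios of -0.28 and -0.24 in the numbers. The Log2FC was -0.26 (SE = 0.44, 95% interval -1.12 to 0.60, DESeq2 adjusted p = 1).

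TEAD2 (ENSG00000074219; chromosome 19, 49340595 to 49362457) had 2764 and 1790.4 normalized counts in control and 2703 and 2328 in AP1AR-DT_OE, a Log2FC of 0.14 (SE = 0.46, 95% interval -0.75 to 1.03, DESeq2 adjusted p = 1). The AP1AR-DT_OE values lay between the controls. CD37 on the opposite strand shares 319 exon bases with TEAD2 and had between 50 and 91 counts, against between 2321 and 2464 for TEAD2.

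TEAD3 (ENSG00000007866; chromosome 6, 35473597 to 35497079) had 1274 and 594 normalized counts in control and 1167 and 708 in AP1AR-DT_OE. TEAD4 (ENSG00000197905; chromosome 12, 2959330 to 3040676) had 523 and 292 in control and 484 and 388 in AP1AR-DT_OE. For both genes the control libraries were the highest and the lowest of the 4, and the AP1AR-DT_OE libraries lay inside that range. The Log2FC was 0.01 for TEAD3 (SE = 0.53, 95% interval -1.04 to 1.05, DESeq2 adjusted p = 1) and 0.10 for TEAD4 (SE = 0.52, 95% interval -0.92 to 1.11, DESeq2 adjusted p = 1). Each of TEAD2, TEAD3 and TEAD4 had a log2 ratio below 0 in number 1 (-0.03, -0.13 and -0.11) and above 0 in number 2 (0.38, 0.25 and 0.41).

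The LATS kinases phosphorylate YAP1 and TAZ directly. LATS2 (ENSG00000150457; chromosome 13, 20973036 to 21061586), the LATS kinase that is also a YAP/TAZ-TEAD target, had counts of 1375 and 2053 in control and 1125 and 1277 in AP1AR-DT_OE. In normalized counts these were 1566 and 1584 in control and 1234 and 1267 in AP1AR-DT_OE. The groups did not overlap, and the gap between them was wider than the gap within either group. The controls averaged 1575 ± 12.5 and the AP1AR-DT_OE libraries 1251 ± 23.7 (SD, n = 2), with log2 ratios of -0.34 and -0.32 in the numbers. The Log2FC was -0.33 (SE = 0.43, 95% interval -1.18 to 0.52) and did not pass the test (DESeq2 unadjusted p = 0.444, adjusted p = 1). With 2 libraries per group, DESeq2 draws the spread of each gene towards that of genes of like level. LATS2 is named apart after its values were seen.

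LATS1 (ENSG00000131023; chromosome 6, 149658153 to 149718105) had 325 and 405 normalized counts in control and 283 and 306 in AP1AR-DT_OE. Both AP1AR-DT_OE libraries again lay below both controls, with log2 ratios of -0.20 and -0.41 in the numbers and a Log2FC of -0.31 (SE = 0.50, 95% interval -1.28 to 0.66, DESeq2 adjusted p = 1).

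LATS1, LATS2 and TEAD1 were thus the 3 of 10 members with both AP1AR-DT_OE libraries below both controls, where 4.35% of the 13298 genes that averaged at least 50 normalized counts lay so. No member lay above both controls, where 5.11% of these genes did. The count depended on the scaling. After correction of each library for its trend with GC content, chosen for this count after the data were seen, LATS2 was the 1 member below both controls (1434 and 1806 in control, 1153 and 1358 in AP1AR-DT_OE), where 8.93% of genes were. The gap between the LATS2 groups was then narrower than the gap within either group. TEAD1 and LATS1 then overlapped between the groups, and TEAD2 and TEAD4 lay above both controls, where 9.7% of genes did. With TMM scaling the members were the same 3 as in the uncorrected values.

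The adaptors had the highest counts of the group. AMOTL2 (ENSG00000114019; chromosome 3, 134355347 to 134375479), an angiomotin-like scaffold that holds YAP1 at junctions and a YAP/TAZ-TEAD target, had 10163 and 6852 normalized counts in control and 9889.6 and 7245 in AP1AR-DT_OE. AJUBA (ENSG00000129474; chromosome 14, 22971177 to 22982551), a LIM-domain protein that binds LATS kinases, had 4184 and 2436 in control and 3955 and 2661 in AP1AR-DT_OE. In both genes the AP1AR-DT_OE values lay between the controls, and each AP1AR-DT_OE library was close to the control of its own number, with log2 ratios of -0.04 and 0.08 for AMOTL2 and -0.08 and 0.13 for AJUBA. The Log2FC was 0.01 for AMOTL2 (SE = 0.45, 95% interval -0.88 to 0.90, DESeq2 adjusted p = 1) and -0.001 for AJUBA (SE = 0.48, 95% interval -0.94 to 0.94, DESeq2 adjusted p = 1). ENSG00000259132 on the same strand has 50 exon bases in common with AJUBA and had 52 and 225 counts in control and 52 and 41 in AP1AR-DT_OE, against between 2681 and 3674 for AJUBA.

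**Figure D2:**
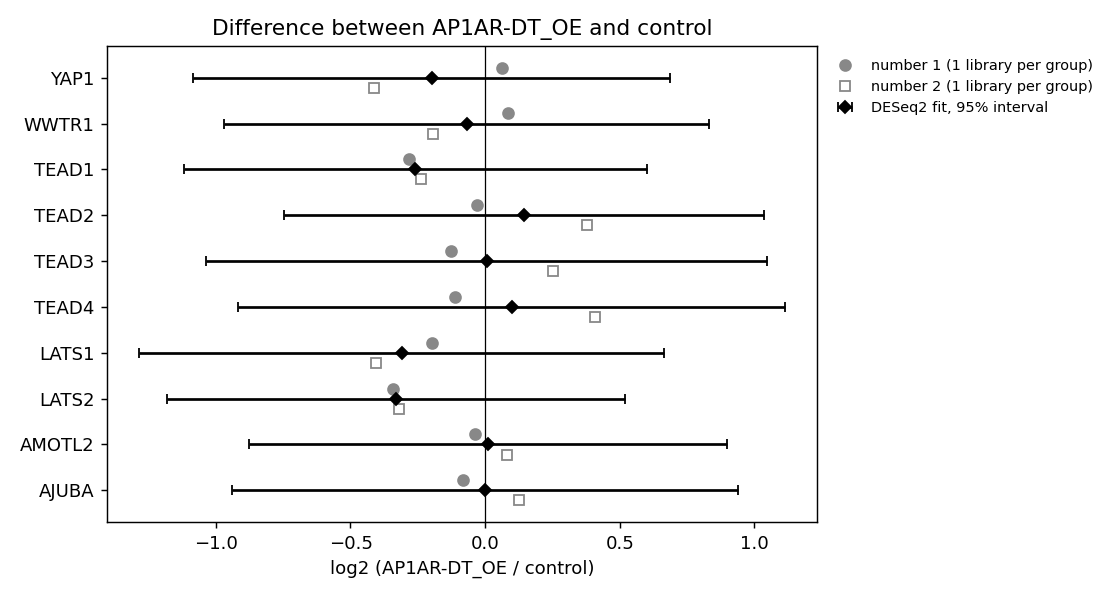
Log2 ratio of AP1AR-DT_OE over control for the 10 members, with the DESeq2 estimate and its 95% interval (black diamonds) and the ratio within number 1 (grey circles) and number 2 (open squares), each from 1 library per group. All intervals include 0, and only LATS1, LATS2 and TEAD1 lie on the same side of 0 in both numbers.

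The levels of the members were set side by side per length, as normalized counts per kilobase of merged exons, over the 4 libraries and with no test. AMOTL2 had the highest level, between 1058 and 1569, and its lowest library lay above the highest of any other member. TEAD2 followed at 601 to 928, AJUBA at 414 to 711 and TEAD3 at 195 to 418. TEAD2 was above AJUBA in each library, although the ranges overlapped across libraries. The same held for AJUBA over TEAD3. TEAD3 was below LATS2 and YAP1 in control 2 (195 against 282 and 279) and above both in the other libraries. The ranges of LATS2 (220 to 282), YAP1 (195 to 279) and TEAD4 (129 to 230) overlapped across libraries, although LATS2 was above YAP1 and above TEAD4 in each library. TEAD1 (99.3 to 131) was likewise above WWTR1 (85.1 to 113) in each library with overlapping ranges. LATS1 was lowest at 33.3 to 47.7. With the longest transcript as the length, the mean of YAP1 was above that of LATS2 and the mean of WWTR1 above that of TEAD1.

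Among the TEAD paralogues TEAD2 made up between 54.7% and 60.3% of the summed level per kilobase in the 4 libraries. TEAD3 gave between 17.9% and 24.6%, TEAD4 between 12.2% and 13.5% and TEAD1 between 6.2% and 12.4%. TEAD1 and TEAD4 exchanged places in control 2, where the log2 ratio of TEAD4 over TEAD1 was -0.03, against 0.62 to 1.10 in the other libraries. The lowest ratio was 0.23 after GC correction and 0.20 with the longest transcript, so that TEAD4 was then above TEAD1 in each library. YAP1 exceeded WWTR1 by 2.11-fold to 2.46-fold and LATS2 exceeded LATS1 by 5.92-fold to 7.3-fold. These ratios varied little between libraries, with SDs of 0.09 and 0.13 on the log2 scale (n = 4 libraries). After GC correction the log2 ratio of LATS2 over LATS1 ran more widely, from 2.19 to 3.35. With the longest transcript as the length, YAP1 was still above WWTR1, with a mean log2 ratio of 0.68 instead of 1.19, since the merged exons of WWTR1 are longer than its longest transcript (8353 against 5037 bases).

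**Figure D3:**
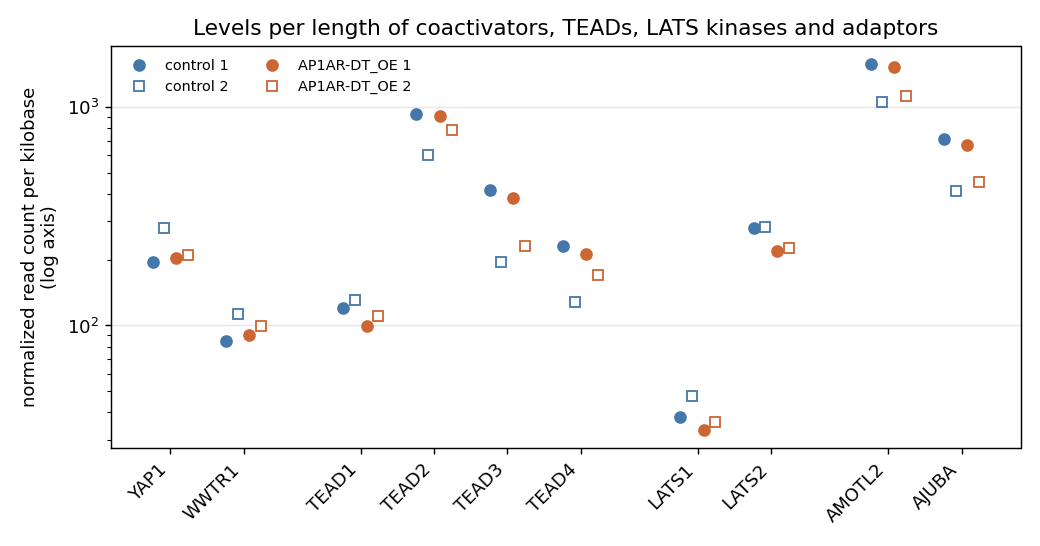
Normalized read count per kilobase of merged exons (log axis) of the members in the 4 libraries, grouped by role, with colours and symbols for group and number. AMOTL2 is highest and LATS1 lowest in each library, and TEAD2 is the most abundant TEAD.

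The libraries of the same group differed with the base composition of the transcripts. The longest transcripts of LATS1, WWTR1, TEAD1 and YAP1 had a GC content of 39.0% to 43.5%, LATS2 51.8%, and AJUBA, AMOTL2, TEAD2, TEAD3 and TEAD4 52.6% to 60.4%. The log2 ratio of control 2 over control 1 was between 0.12 and 0.52 for the first 4 genes, 0.02 for LATS2 and between -1.10 and -0.57 for the other 5. In AP1AR-DT_OE the same ratio was between 0.04 and 0.16, 0.04 and between -0.72 and -0.22. Across the 10 members Spearman's rho with GC content was -0.87 for the controls and -0.81 for AP1AR-DT_OE, given as a description. Over the 13284 of all genes that averaged at least 50 normalized counts and could be given a GC content it was -0.77 and -0.65. Genes are not independent replicates in these correlations, and the points share their libraries. The labels do not say what the number stands for.

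**Figure D4:**
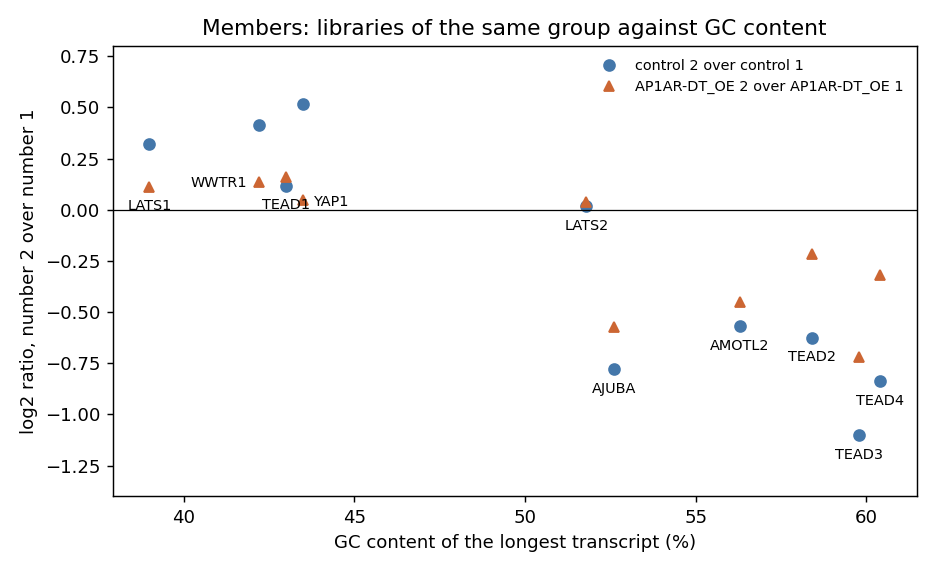
Log2 ratio of the library of number 2 over that of number 1 within control (blue circles) and AP1AR-DT_OE (orange triangles) against the GC content of the longest transcript, for the 10 members. The 4 members at or below 43.5% GC lie above 0 and the 5 members at or above 52.6% GC lie below 0 in both groups.

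The difference between the groups in number 2 also followed GC content, with rho = 0.83 across the members and 0.62 across the 13284 genes, while in number 1 rho was 0.03 and -0.34. The 3 TEAD genes of high GC content had positive ratios in number 2 beside negative ratios for YAP1 and WWTR1. The part of base composition in the other differences between the groups was not tested.

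Other genes of the Hippo pathway were taken from a fixed list of 36, of which 34 were in the table and VGLL1 and VGLL2 were not analysed here. None of the 34 was called in either direction by DESeq2, and 0 had an unadjusted p under 0.05. VGLL3 had 4 counts in control 1 and 0 elsewhere, under the limit of 12 counts (3 read pairs) that an observation of 0 allows, and no fold is given for it. The other 33 had a median Log2FC of -0.08, with 9 above 0 and 24 below, beside a median of -0.03 over all genes tested, and 15 of them had the same sign in both numbers. Of the 24 listed genes that are not members, 23 had a fold, with 5 above 0 and 18 below. The most abundant of these were TAOK2, a kinase upstream of LATS (Log2FC = -0.06, SE = 0.52), NF2, the scaffold Merlin that recruits LATS to the membrane (Log2FC = 0.10, SE = 0.48), and PTPN14, a phosphatase that binds YAP1 (Log2FC = -0.11, SE = 0.44), each with a DESeq2 adjusted p of 1. VGLL4, which competes with YAP1 for TEAD, was the 1 pathway gene with both AP1AR-DT_OE libraries above both controls, where 5.11% of the 13298 genes lay so. It had 2439.6 and 2486 normalized counts in control and 2732 and 2666 in AP1AR-DT_OE (Log2FC = 0.13, SE = 0.43, DESeq2 adjusted p = 1), was singled out after its values were seen, and overlapped between the groups after GC correction (2359 and 2667 in control, 2634 and 2788 in AP1AR-DT_OE). FRMD6, also named after its values were seen, overlapped before that correction. After it FRMD6 lay below both controls (2118 and 1912 in control, 1730 and 1683 in AP1AR-DT_OE), where 8.93% of genes did.

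Target genes of YAP/TAZ-TEAD were taken from a fixed list of 22, of which 21 were in the table and FOXF2 was not analysed here. LATS2, AMOTL2 and PTPN14 stand in both lists. None of the 21 was called in either direction by DESeq2, and 0 had an unadjusted p under 0.05. The median Log2FC was -0.10, with 6 above 0 and 15 below, and 13 had the same sign in both numbers. The 3 most abundant that are not members were CCN1, CCN2 and NT5E. CCN1 (listed as CYR61), a secreted matricellular protein, had 19120.4 and 18073 normalized counts in control and 22170.4 and 20997 in AP1AR-DT_OE. CCN2 (listed as CTGF), its paralogue, had 12573 and 11383 in control and 15054 and 12391 in AP1AR-DT_OE. The CCN1 groups did not overlap, with log2 ratios of 0.21 and 0.22 in the numbers, whereas the CCN2 groups did overlap. CCN1 was the 1 target with both AP1AR-DT_OE libraries above both controls, where 5.11% of the 13298 genes lay so.

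The Log2FC was 0.21 for CCN1 (SE = 0.42, 95% interval -0.60 to 1.03) and 0.20 for CCN2 (SE = 0.42, 95% interval -0.64 to 1.03), each with a DESeq2 adjusted p of 1. NT5E, the surface enzyme CD73, had 9904 and 16549 normalized counts in control and 10022 and 12930 in AP1AR-DT_OE (Log2FC = -0.20, SE = 0.46, DESeq2 adjusted p = 1). Both AP1AR-DT_OE libraries lay below both controls for 4 targets, LATS2 and, named after their values were seen, IGFBP3, DOCK5 and TGFB2, whose Log2FC lay between -0.35 and -0.28. Of the 13298 genes that averaged at least 50 normalized counts, 4.35% lay so, and 8.93% after GC correction. Under that correction TGFB2 overlapped between the groups and F3, the coagulation tissue factor, lay below both controls instead. CCN2 then lay above both controls beside CCN1, where 9.7% of these genes did. None of these targets passed the test.

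**Figure D5:**
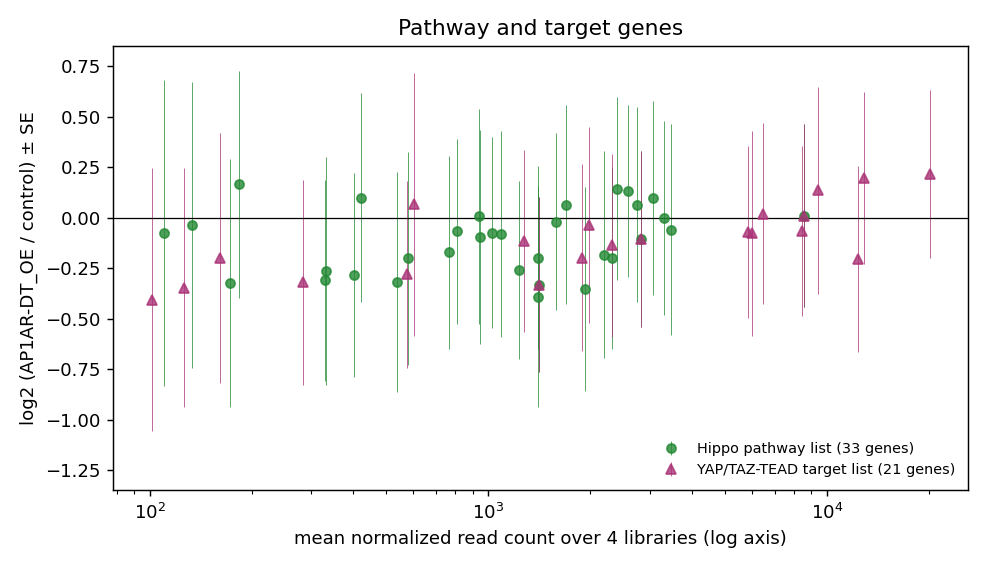
Log2FC of AP1AR-DT_OE over control with its SE against the mean normalized count (log axis), for the 33 pathway genes with a fold (green circles) and the 21 target genes (purple triangles). Values lie between -0.41 and 0.22, and no gene was called.

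The genes whose pattern over the 4 libraries was most like that of YAP1 were sought among the 50 other genes of both lists that averaged at least 50 normalized counts. The measure was the mean absolute difference between log2 values centred on each gene. WWTR1 was nearest (0.06), followed by TAOK1, a kinase upstream of LATS (0.07), and LATS1 (0.08). Their longest transcripts had a GC content of 42.2%, 40.1% and 39.0%, beside 43.5% for YAP1.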

How the data were processed

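Per the paper's methods, the authors aligned paired-end reads with HISAT2 to hg19, ran StringTie and extracted the deposited whole-number counts per gene with its Python script. GEO's processing notes instead name TopHat2 2.0.4, HTSeq and edgeR 2.6.12, and the annotation is not given in the sources used here. The low counts piled up at 4 and 8 (3287 entries at 4, against 2136 at 3 and 1509 at 5), about 4 counts per read pair. The deposited table also holds results of the authors' own tests, which were not used. Gene positions in it are GRCh38. Counting by strand is not stated, so genes that overlap are uncertain.

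DESeq2 1.42.0 in R 4.3.3 (median-of-ratios size factors, Wald test, Benjamini-Hochberg adjustment, threshold 0.05, no covariate) was fitted to all 24014 genes. The alternatives used edgeR 4.0.16 and the settings named at the end. Length and GC content came from GENCODE v44 mapped to GRCh37 (23954 genes matched), as merged exons and the longest transcript. The GC correction removed a lowess trend (span 0.3) from each library. The limit of 12 counts and the relative counting error given for LATS1 cover counting error only. The 95% intervals of Log2FC are 1.96 SE of the DESeq2 fit, which also takes in the spread between libraries.

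Members and lists were chosen with earlier results of these data known. Named genes were the members, AP1AR-DT, listed genes called or under 0.05, the 3 most abundant of each list that are not members and the 3 most like YAP1.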

Additional observations from a re-analysis of the deposited data

How the results depend on the processing

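No member was called in any of the 120 combinations of a member and an alternative, with a smallest unadjusted p of 0.0477 (LATS2 with replicate block and GC correction, Log2FC = -0.36, DESeq2 adjusted p = 1; the unadjusted p of LATS2 otherwise ran from 0.159 upward). The sign was that of the reported value in 104 and the opposite in 16, of which 5 did not leave out a library: AMOTL2 was -0.024 with GC correction and -0.026 with replicate block and GC correction, WWTR1 was 0.002 with the latter, and AJUBA was 0.023 with the replicate block and 0.002 with counts divided by 4. When a library was left out, and the lone library of a group was assumed to vary like the others, the Log2FC lay between -0.44 and 0.10 for YAP1, -0.26 and 0.17 for WWTR1, -0.35 and -0.19 for TEAD1, -0.13 and 0.49 for TEAD2, -0.43 and 0.66 for TEAD3, -0.25 and 0.58 for TEAD4, -0.46 and -0.13 for LATS1, -0.36 and -0.31 for LATS2, -0.24 and 0.32 for AMOTL2, and -0.33 and 0.44 for AJUBA. LATS1, LATS2 and TEAD1 stayed below 0 throughout. Without control replicate 2, YAP1, WWTR1, TEAD2, TEAD3, TEAD4 and AMOTL2 took the opposite sign, and so did TEAD3, TEAD4 and AMOTL2 without AP1AR-DT_OE replicate 1. AJUBA did so without AP1AR-DT_OE replicate 2 and when control replicate 1 was dropped. The cause was not tested.

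The count of all genes called, 33 as reported, was 15 with counts divided by 4, 0 with the edgeR test (where 112 genes had an unadjusted p under 0.05), 55 with GC correction, 60.0 with replicate block and GC correction, 37 with the replicate block alone, and between 45 and 90.0 when a library was left out. AP1AR-DT had a Log2FC of 6.60 and no call with the edgeR test, and between 6.02 and 8.05 with a call when a library was left out. The pathway and target lists held 0 called genes under every alternative. At an unadjusted p under 0.05 by DESeq2 each held 1 gene, LATS2, with replicate block and GC correction, where 252 of all genes lay so. Without control replicate 2, FAT1 of the pathway list had a Log2FC of -0.92, against -0.39 with all libraries. When a library was left out, the median of the pathway list lay between -0.22 and 0.06 and that of the target list between -0.24 and -0.02. With the longest transcript as length, the mean log2 ratio was 0.68 for YAP1 over WWTR1, 2.51 for LATS2 over LATS1 and 0.31 for TEAD3 over TEAD4, against 1.19, 2.70 and 0.69 with merged exons. Members below both controls numbered 1 with GC correction, against 3 as reported and 3 with TMM. The GC correction of levels and the scalings of this count were added after the data were seen.

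The replicate numbers were not shown to pair the libraries: with 2 pairs, the deviations of number 1 from the group means correlated at 0.49 across 13298 genes, and at 0.26 after GC correction.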
